A study of Rattus norvegicus with 64 samples.

Results

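A set of 10 genes of the blood's acute inflammatory response were followed across 64 rats: the cytokines Il1b, Il1a, Tnf, Il6 and Il10, the interleukin-1 receptor antagonist Il1rn, the chemokine Cxcl2, the prostaglandin-forming enzyme Ptgs2, and Nfkbia and Tnfaip3, which restrain NF-kB. They were taken by matching their symbols in the count tables. All 10 were listed once in each of the 64 tables, among 26405 genes in any table and 17366 in all of them, and all 10 had enough counts to be tested.

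NF-kB is held in the cytoplasm of leukocytes by inhibitors of the I-kappa-B family, of which Nfkbia encodes the alpha form. Interleukin-1, tumour necrosis factor and microbial products release it, and it then turns on cytokine and chemokine genes together with its own brakes, among them Nfkbia and the ubiquitin-editing enzyme Tnfaip3 (A20). Monocytes and neutrophils are well known sources of these transcripts in blood.

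The rats were adult male Sprague-Dawley, 85 to 90 days old, and each gave 1 globin-depleted whole blood RNA library. Every animal had 4 injections spaced 2 h apart and was bled by cardiac puncture 3 h after the fourth. The groups were saline at 22.5 C (6 rats), saline at 16 C (5 rats, also normothermic), saline at 39 C, termed environmentally induced hyperthermia or EIH (16 rats), amphetamine (AMPH) at 16 C (15 rats, labelled as keeping a normal temperature) and AMPH at 22.5 C (22 rats, labelled hyperthermic). Separate animals are named by the labels, so n counts rats. The name of the table of EIH replicate 12 carries the word pool, and whether it held 1 rat is not stated. That library was over the limit on heart muscle RNA given below and outside every fit but the one of all 64 rats.

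Levels are counts divided by each rat's DESeq2 size factor, and no level is compared between genes. Differences are log2 fold changes with standard errors (SE) from a single edgeR fit of all groups with the project as a covariate (the code that opens each table's name, which the labels do not define), so the comparisons share rats. A gene is termed called at an adjusted p below 0.05 (quasi-likelihood test, Benjamini-Hochberg over the 14000 genes tested) together with an absolute log2 fold change above 0.58. The fit left out 5 rats whose blood carried more than 5000 counts of the heart muscle gene Mb, which left 4 saline rats at 22.5 C, 15 EIH rats and 13 AMPH rats at 16 C. Total counts ran from 19055615 to 40530319 per rat, and the 4 hemoglobin genes still took 2.69 to 33.0% of the counts in EIH rats and 6.43 to 11.7% in saline rats at 22.5 C. In whole blood, fewer cells of a type and less RNA per cell cannot be told apart.

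The upstream sequences of 5 of the genes are shown. Il1a, Ptgs2 and Tnfaip3 were called in a comparison described below. Cxcl2 was not called in that fit, only in some alternatives to it, and Nfkbia is an NF-kB inhibitor with a kappa B match. Il1rn, also called below, is not shown and had no kappa B match within 250 bases. Each runs 5′ to 3′ over the 200 bases before the transcription start of the RefSeq annotation on GRCr8, a later build than the one used for the counts, and capitals mark matches to the kappa B consensus on either strand. Il1a lay at chr3:136990018-136990217 on the minus strand, Ptgs2 at chr13:64713863-64714062 on the plus strand, Tnfaip3 at chr1:15543980-15544179 on the minus strand, Cxcl2 at chr14:17467256-17467455 on the minus strand and Nfkbia at chr6:78597073-78597272 on the minus strand.
Il1a: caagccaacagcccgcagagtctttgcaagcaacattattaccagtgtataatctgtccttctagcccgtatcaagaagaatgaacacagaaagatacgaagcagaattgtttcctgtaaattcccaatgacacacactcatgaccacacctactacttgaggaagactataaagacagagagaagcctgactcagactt
Ptgs2: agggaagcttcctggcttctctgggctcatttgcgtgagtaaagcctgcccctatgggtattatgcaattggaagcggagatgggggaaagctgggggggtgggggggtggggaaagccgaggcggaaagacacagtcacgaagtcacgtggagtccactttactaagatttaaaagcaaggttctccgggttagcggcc
Tnfaip3: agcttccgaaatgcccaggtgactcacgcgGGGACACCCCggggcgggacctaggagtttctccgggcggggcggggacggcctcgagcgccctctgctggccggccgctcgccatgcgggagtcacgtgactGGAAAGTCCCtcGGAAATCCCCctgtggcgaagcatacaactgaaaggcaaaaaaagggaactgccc
Cxcl2: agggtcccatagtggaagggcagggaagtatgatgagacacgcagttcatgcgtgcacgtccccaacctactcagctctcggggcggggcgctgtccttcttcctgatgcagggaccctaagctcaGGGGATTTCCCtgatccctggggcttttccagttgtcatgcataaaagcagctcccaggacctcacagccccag
Nfkbia: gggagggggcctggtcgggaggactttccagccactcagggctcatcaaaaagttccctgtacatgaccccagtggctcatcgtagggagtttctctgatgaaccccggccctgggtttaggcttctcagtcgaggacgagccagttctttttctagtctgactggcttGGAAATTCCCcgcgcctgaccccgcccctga

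Promoter entries were found for 9 of the 10 genes, Il10 having none in the table. Of these 9, 4 held the kappa B consensus within 250 bases before the start, against 6.33% of 33469 RefSeq rat promoters of the same length. Cxcl2 carried overlapping matches from -74 to -64, Nfkbia 1 match from -31 to -22, Il6 1 from -68 to -59, and Tnfaip3 3 matches beginning at -170, -67 and -55. The hexamer TATAAA on the gene's own strand, present in 8.06% of the promoters, was found in Il1b, Il1a and Tnf, in Il1a at -32. A match is a description of letters and not a binding site, and the lack of one says only that these letters are absent from this window.

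**Figure D1:**
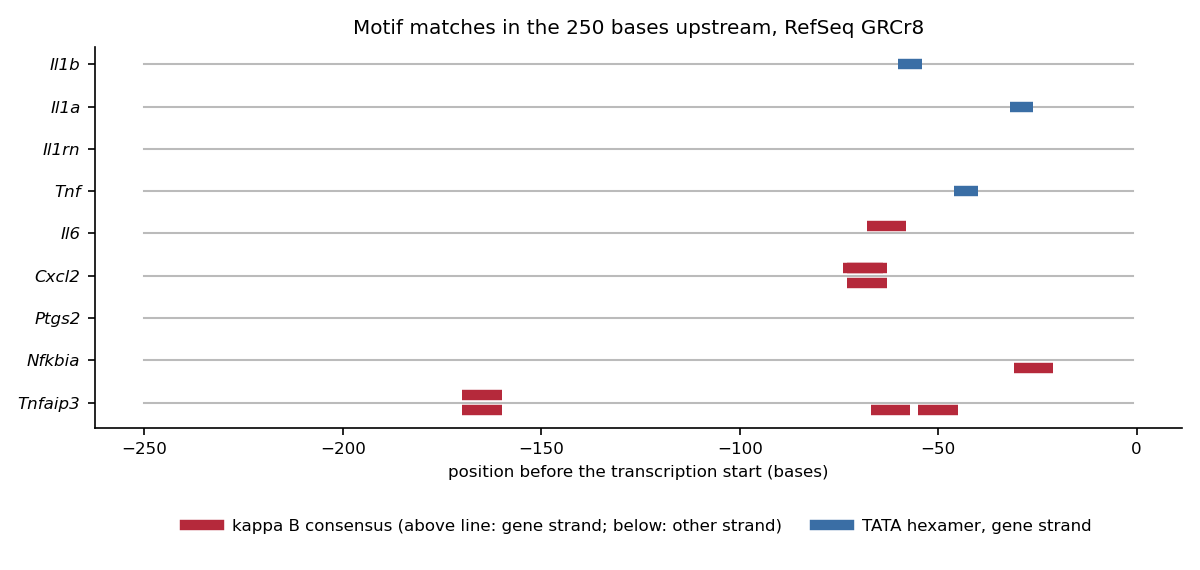
Matches to the kappa B consensus (red, above the line on the gene's strand and below it on the other) and to the TATA hexamer (blue, gene's strand) in the 250 bases before the transcription start of 9 genes, with the position in bases on the horizontal axis. Tnfaip3 has 3 kappa B positions, and Il1b, Il1a, Il1rn, Tnf and Ptgs2 have none in this window.

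Interleukin-1 alpha, a cytokine that cells release when damaged and that acts on the same receptor as interleukin-1 beta, was higher in AMPH rats at 22.5 C than in AMPH rats at 16 C. Its level at 22.5 C ran from 0 through a median of 40.5 to 117 normalized counts (22 rats), and at 16 C from 0 through 4.51 to 18.1 (15 rats). At 22.5 C 16 of the 22 AMPH rats lay above every AMPH rat at 16 C, and the 2 groups overlapped in the rest. Of all genes, 7.05% were called between these groups. The means were 45.3 ± 32.6 and 5.70 ± 4.95 (SD, n = 22 and n = 15). The log2 fold change was 3.40 (SE 0.674, 95% confidence interval 2.05 to 4.76), a 10.6-fold higher level at 22.5 C, with an adjusted p of 0.000713 by edgeR. Few counts stand behind it: only 2 of the 15 AMPH rats at 16 C had 10 or more Il1a counts, against 21 of 22 at 22.5 C.

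The same direction held in each of the 5 projects that included both AMPH groups. Project means at 16 C were 9.47, 0, 3.46, 5.04 and 2.72 normalized counts, and the corresponding means at 22.5 C were 32.2, 58.0, 43.4, 46.2 and 64.4. When the fit was confined to the 10 AMPH rats at 22.5 C and 9 at 16 C of those projects, the log2 fold change was 3.51 (SE 0.563, adjusted p = 0.00057 by edgeR). Il1a was the 1 of the 10 genes called between the AMPH groups.

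In the saline rats Il1a was near the limit of counting. The 6 rats at 22.5 C had 1.08, 1.54, 4.64, 3.51, 8.02 and 5.25 normalized counts, and the 5 rats at 16 C had 2.11, 6.00, 2.23, 2.82 and 1.92. Of the 22 AMPH rats at 22.5 C, 21 were above every saline rat at that temperature, in a comparison in which 2.49% of all genes were called. The remaining AMPH rat, replicate 17, had 0 Il1a counts, which allows up to 3 counts or 1.42 normalized counts. Against saline at 22.5 C the log2 fold change was 3.50 (SE 0.992, adjusted p = 0.0446 by edgeR).

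EIH rats covered both ranges, from 1.77 through a median of 20.5 to 129 normalized counts of Il1a (16 rats), and 9 of the 16 exceeded every AMPH rat at 16 C (9.99% of all genes were called between those groups). No Il1a difference from EIH was called: it was 1.87 (SE 0.628) for AMPH at 22.5 C, with an adjusted p of 0.0913, and -1.54 (SE 0.667) for AMPH at 16 C, with an adjusted p of 0.121. DESeq2's Wald test called both, at 1.96 (adjusted p = 0.0147) and -1.61 (adjusted p = 0.0473). Against saline at 22.5 C, EIH stood at 1.64 (SE 1.13, adjusted p = 0.369 by edgeR), not called. There 11 of the 16 EIH rats lay above all 6 saline rats, and 2.86% of all genes were called. Without the project term that difference was 2.94 (adjusted p = 0.0189 by edgeR), a call. AMPH at 16 C differed from its own saline group by 0.872 (SE 1.15, adjusted p = 0.844 by edgeR).

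**Figure D2:**
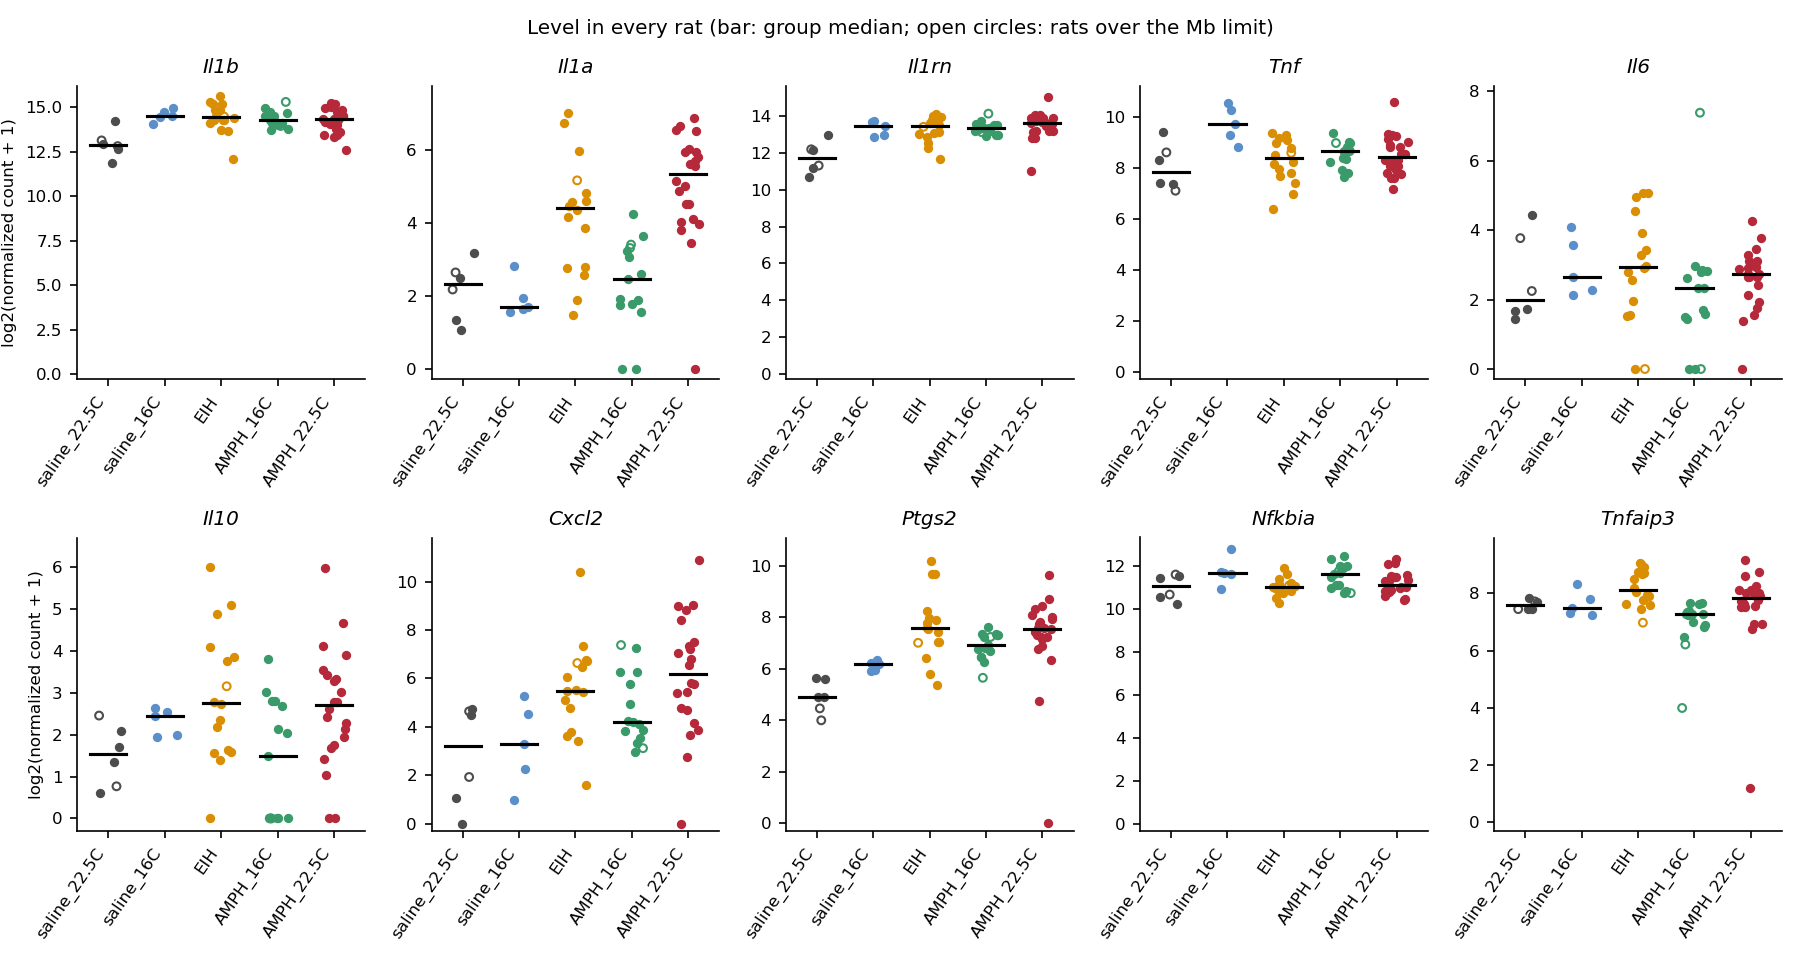
Level of each gene in every rat as log2(normalized count + 1), with 1 panel per gene and the 5 groups along the horizontal axis; bars are group medians and open circles the 5 rats over the Mb limit. Il1a sits high in most AMPH rats at 22.5 C (median 40.5 normalized counts) and low in AMPH rats at 16 C (median 4.51), whereas Il1b medians of 4 groups lie between 20311 and 23836.

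Interleukin-1 beta, the secreted form that needs cleavage by caspase-1, did not follow Il1a between the AMPH groups. Its level ran from 13732 through a median of 20311 to 40494 normalized counts in AMPH rats at 16 C and from 6149 through 20872 to 38981 at 22.5 C, and the ranges overlapped almost throughout. The log2 fold change between them was 0.005 (SE 0.275, 95% confidence interval -0.547 to 0.558, adjusted p = 0.994 by edgeR). Within the 5 shared projects the mean normalized count was higher at 22.5 C in 2 and lower in 3, and the mean of log2 values was higher in 1 and lower in 4.

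In EIH rats Il1b ran from 4405 through 22219 to 50105 normalized counts. The 5 saline rats at 16 C had 17452, 31405, 23836, 27567 and 22755, and so lay within the EIH range. Against saline at 22.5 C the EIH rats were at 1.68 (SE 0.498, adjusted p = 0.051 by edgeR), just short of a call, and 12 of the 16 EIH rats lay above all 6 of those saline rats (2.86% of all genes were called). Saline at 16 C stood at 1.82 above saline at 22.5 C (SE 0.655, adjusted p = 0.395), with 4 of 5 rats above all 6 (0.00714% of all genes were called). The summed neutrophil markers were also higher in saline at 16 C, from 358062 through 557562 to 809575 normalized counts against 32865 through 130342 to 428327 at 22.5 C, and their part in the levels of Il1b, Tnf and Ptgs2 was not tested. AMPH at 16 C differed from saline at 16 C by -0.563 (SE 0.497, adjusted p = 0.746), from EIH by -0.418 (SE 0.284, adjusted p = 0.36), and AMPH at 22.5 C from EIH by -0.412 (SE 0.274, adjusted p = 0.416).

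The receptor antagonist Il1rn, which binds the interleukin-1 receptor without activating it, was higher in AMPH rats at 22.5 C than in saline rats at 22.5 C. The 6 saline rats at 22.5 C had 1643, 2296, 8091, 2554, 4621 and 4708 normalized counts, and the AMPH rats at that temperature ran from 2058 through 12588 to 33303. Of the 22 AMPH rats, 19 exceeded all 6 saline rats, in a comparison in which 2.49% of all genes were called. The log2 fold change was 1.48 (SE 0.405, adjusted p = 0.0371 by edgeR), a 2.79-fold higher level. EIH stood 1.38 above the same saline group (SE 0.471, adjusted p = 0.0752). Saline at 16 C stood 1.12 above it (SE 0.621, adjusted p = 0.618 by edgeR), with 4 of 5 rats above all 6, where 0.00714% of all genes were called. AMPH at 22.5 C differed from AMPH at 16 C by 0.235 (SE 0.263, adjusted p = 0.651 by edgeR). Elsewhere the Il1rn means were close together, at 10797 ± 2770 in saline at 16 C (n = 5), 10772 ± 2603 in AMPH at 16 C (n = 15) and 11182 ± 4567 in EIH (n = 16). AMPH at 16 C differed from its saline group by 0.123, with a 95% confidence interval of -0.809 to 1.06.

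Ptgs2, the inducible cyclooxygenase, was the gene called in both hyperthermic groups against saline at 22.5 C. The 6 saline rats there had 29.1, 29.3, 49.5, 21.1, 48.1 and 15.0 normalized counts. EIH rats ran from 40.5 through 189 to 1171 and AMPH rats at 22.5 C from 0 through 188 to 791. In EIH 15 of 16 rats, and in AMPH 20 of 22 rats, lay above all 6 saline rats. Of all genes, 2.86% were called for EIH and 2.49% for AMPH. The log2 fold changes were 3.22 for EIH (SE 0.708, adjusted p = 0.0163 by edgeR) and 2.77 for AMPH (SE 0.613, adjusted p = 0.0142 by edgeR), 9.35-fold and 6.82-fold. The sizes varied with the processing, from 1.72 to 3.61 for EIH and from 1.82 to 3.18 for AMPH on the log2 scale, the lowest of each with the replicate number as a block and the highest with all 64 rats.

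The 2 AMPH rats outside this pattern were replicate 17, at 26.1 normalized counts, and replicate 21, at 0 counts, which allows up to 3.92 normalized counts. Replicate 21 was the only rat of its project and had 1 count or none in 129 of 7779 genes with a median of at least 100 normalized counts over all rats, among them Ptgs2 and Tnfaip3, while the rat with the next highest number had 30. A rat alone in its project does not bear on the fitted differences.

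Saline rats at 16 C had 81.3, 59.0, 60.2, 74.4 and 72.1 normalized counts of Ptgs2, each above all 6 saline rats at 22.5 C, yet the fitted difference of 1.40 had an SE of 0.883 and an adjusted p of 0.659 by edgeR. Those 2 saline groups shared no project. AMPH rats at 16 C ran from 49.3 through 120 to 198, and 13 of the 15 lay above all 5 of their saline controls, with a fitted difference of 0.867 (SE 0.651, adjusted p = 0.676) and 0% of all genes called. The Ptgs2 level of AMPH rats at 16 C was lower than in EIH by 0.961 on the log2 scale (SE 0.384, adjusted p = 0.0877), short of a call, and called at -1.02 when 10 and 7 rats of the 5 projects with both groups were used alone (SE 0.296, adjusted p = 0.034 by edgeR).

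Across these comparisons, 3 of the 10 genes (Il1a, Il1rn and Ptgs2) were called higher in AMPH at 22.5 C than in saline at 22.5 C, where 2.49% of all genes were called, and 1 of 10 (Ptgs2) in EIH against the same saline rats, where 2.86% were. The fitted values of the 10 genes were all above 0 in both, with medians of 1.37 for AMPH and 1.40 for EIH, against medians of -0.034 and -0.039 over all genes. Saline at 16 C against the same saline rats had 8 of 10 above 0 and a median of 1.02, against -0.037 over all genes. The shift is thus not particular to the hyperthermic groups. Each of these comparisons rests on 4 saline rats at 22.5 C. AMPH rats shared 2 projects with them, in both of which the means of Il1a, Il1rn and Ptgs2 were higher with AMPH. In those projects alone (7 AMPH and 4 saline rats) the values were 3.54, 1.50 and 2.80, each with an adjusted p of 0.266 by edgeR and 0 genes called in all. EIH rats shared no project with saline at 22.5 C, so their difference passes through the AMPH rats in the fit. Without replicate 17, 18 or 21 of the saline group, none of the 10 genes was called for AMPH, and without replicate 19 the count was 5, Il1b and Cxcl2 being added. For EIH, Ptgs2 was not called without replicate 18 or 21 (adjusted p of 0.0553 and 0.112), and 3 genes were called without replicate 19.

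**Figure D3:**
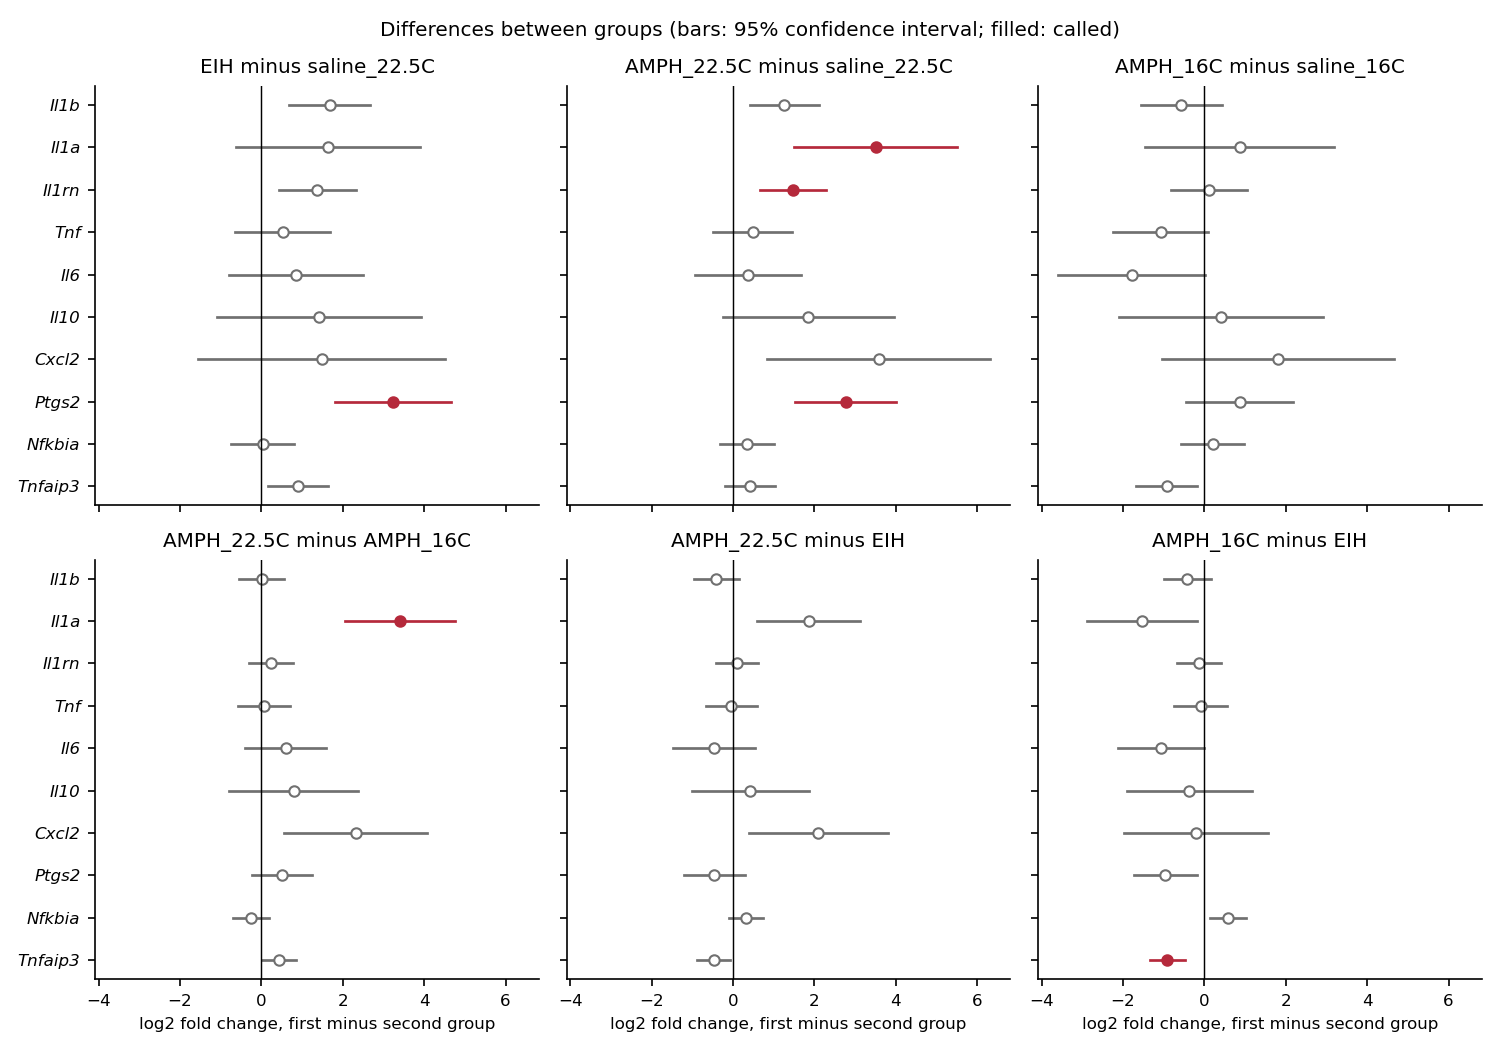
Log2 fold change of each gene in 6 comparisons, first group minus second, with 95% confidence intervals as bars; filled red points are called. Ptgs2 is called in both hyperthermic groups against saline at 22.5 C (3.22 and 2.77), Il1a between the AMPH groups (3.40), and Tnfaip3 below EIH in AMPH at 16 C (-0.91).

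**Figure D4:**
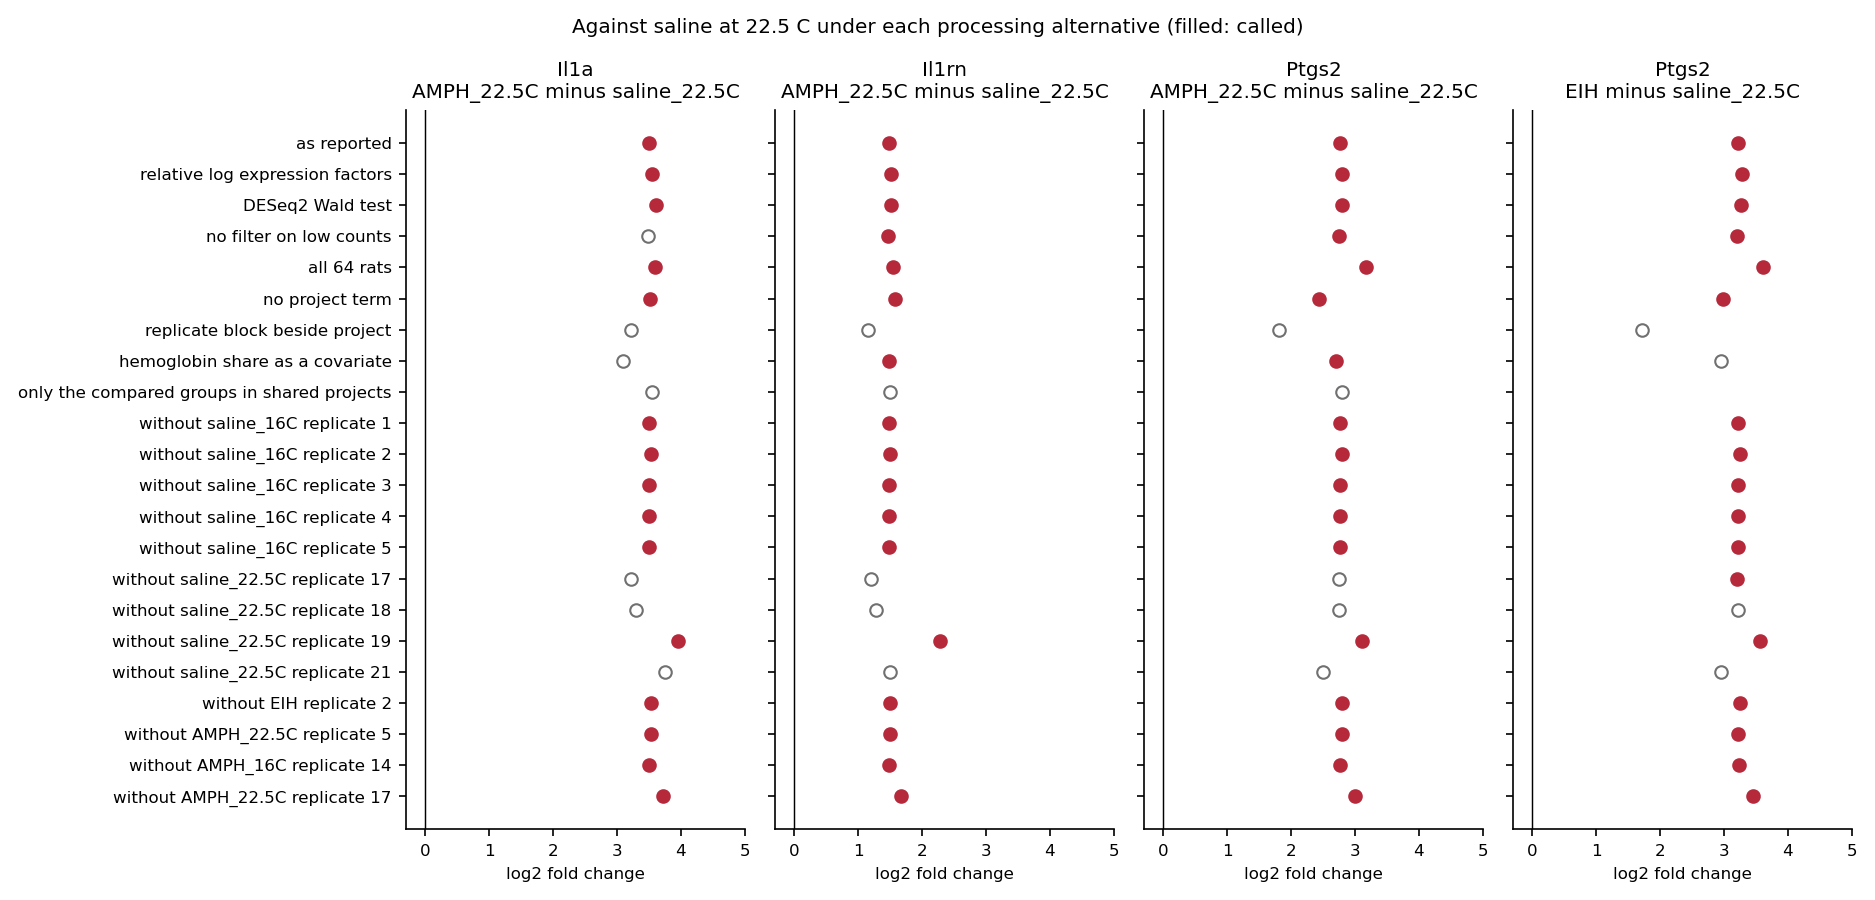
Log2 fold changes against saline at 22.5 C under every processing alternative, 1 panel per gene and comparison, with filled points where the gene was called. Il1a moved between 3.09 and 3.95 and Il1rn between 1.16 and 2.28, Ptgs2 moved between 1.82 and 3.18 with AMPH and between 1.72 and 3.61 in EIH, and in the 3 AMPH panels the open points include the fits without saline replicates 17, 18 and 21.

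Cxcl2, a chemokine that draws neutrophils through Cxcr2, varied widely between rats of the same group. The 6 saline rats at 22.5 C had 1.08, 0, 25.5, 2.81, 21.2 and 24.0 normalized counts. AMPH rats at 22.5 C ran from 0 through 73.3 to 1884, AMPH rats at 16 C from 6.78 through 17.6 to 166, and EIH rats from 2.02 through 44.3 to 1362. Of the AMPH rats at 22.5 C, 16 of 22 exceeded all 6 saline rats and 6 of 22 exceeded all AMPH rats at 16 C. Of all genes, 2.49% were called in the former comparison and 7.05% in the latter. The fitted difference was 3.58 against saline (SE 1.36, adjusted p = 0.122) and 2.31 against AMPH at 16 C (SE 0.871, adjusted p = 0.0785), neither called by edgeR. Over the alternatives the difference from saline ran from 3.12 with the hemoglobin share as a covariate to 5.69 without saline replicate 19, where it was called.

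Within the 5 projects that held both AMPH groups Cxcl2 was higher at 22.5 C in 4, and the fit confined to them gave 2.58 (SE 0.621, adjusted p = 0.00971 by edgeR), a call. DESeq2 called Cxcl2 in both comparisons, at 3.51 against saline (adjusted p = 0.0345) and 2.30 against AMPH at 16 C (adjusted p = 0.0281).

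**Figure D5:**
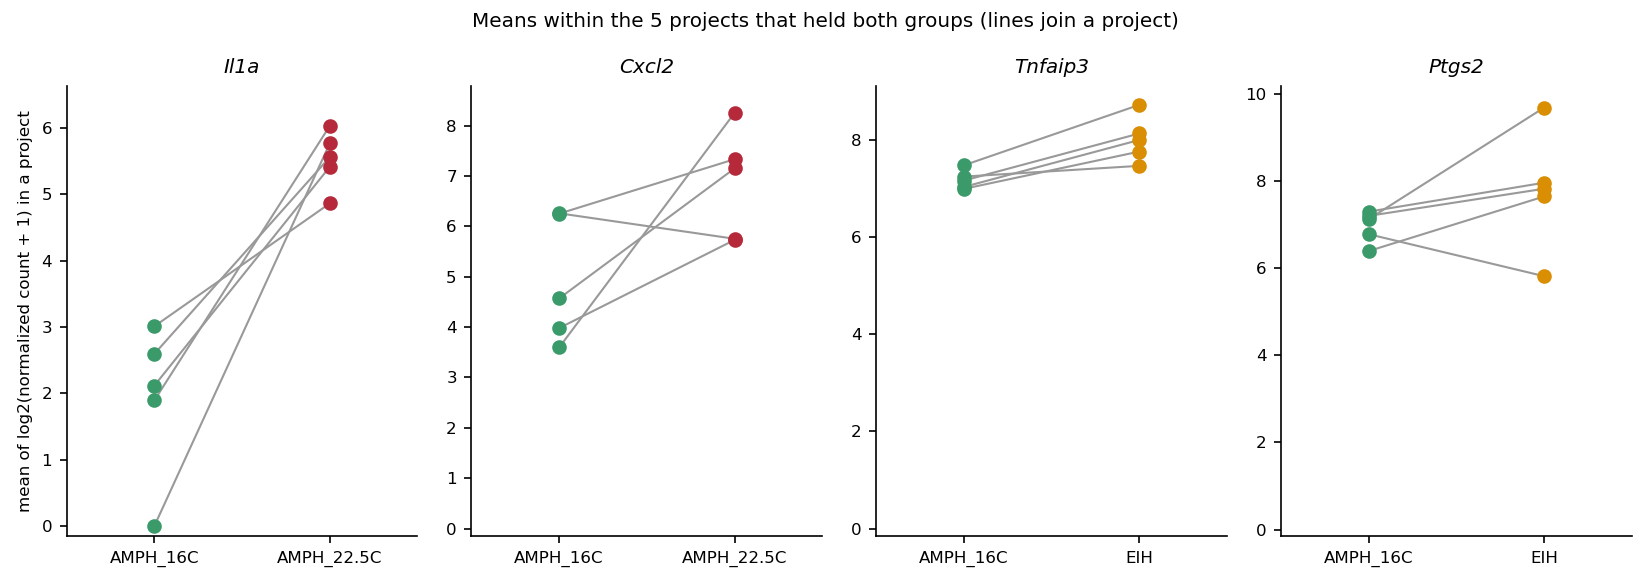
Mean of log2(normalized count + 1) in each of the 5 projects that held both groups named under a panel, a line joining the groups of 1 project. Il1a is higher in AMPH at 22.5 C than at 16 C in 5 of 5 projects and Cxcl2 in 4 of 5, and Tnfaip3 is higher in EIH than in AMPH at 16 C in 5 of 5 and Ptgs2 in 4 of 5.

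Tumour necrosis factor, made by monocytes and macrophages early in inflammation, was not called in any comparison. Its medians were 240 normalized counts in saline at 22.5 C, 333 in EIH, 347 in AMPH at 22.5 C and 402 in AMPH at 16 C. The 5 saline rats at 16 C stood higher, at 446, 1493, 846, 1240 and 630, and 3 of them exceeded all 15 AMPH rats at 16 C (0% of all genes were called). The fitted difference of AMPH from saline at 16 C was -1.07 (SE 0.578, adjusted p = 0.516 by edgeR), and that of the 2 saline groups 1.50 (SE 0.762, adjusted p = 0.594).

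Il6, the acute-phase cytokine, and Il10, which damps macrophage activation, had few counts. Il6 medians lay between 3.03 and 6.65 normalized counts in the 5 groups, and 16 of the 64 rats had 10 or more Il6 counts. One AMPH rat at 16 C, replicate 12, had 166 normalized counts of Il6. It was over the Mb limit and outside the fit, and without it and the other excluded rat the highest Il6 level of that group was 6.78. Il10 medians lay between 1.81 and 5.72, with up to 63.7 in an EIH rat and 62.8 in an AMPH rat at 22.5 C. No difference in Il6 or Il10 was called, and the standard errors of the fitted differences show the low precision: 0.497 for Il6 and 0.786 for Il10 between the AMPH groups, against 0.275 for Il1b.

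Tnfaip3, the A20 brake on NF-kB, was lower in AMPH rats at 16 C than in EIH rats. EIH rats ran from 125 through a median of 277 to 528 normalized counts, and AMPH rats at 16 C from 14.9 through 152 to 204. None of the 15 AMPH rats at 16 C was above the EIH median, and 5 lay below all 16 EIH rats. The lowest EIH value belonged to replicate 12, outside the fit. Among the rats of the fit EIH began at 175, and 10 of 13 AMPH rats at 16 C lay below all 15 EIH rats. The Tnfaip3 level was lower in AMPH at 16 C by 0.910 on the log2 scale (SE 0.212, adjusted p = 0.00222 by edgeR). In the 5 projects with both groups, means were 150, 132, 178, 150 and 126 in AMPH at 16 C against 299, 254, 420, 175 and 215 in EIH, lower in each. Tnfaip3 was the 1 gene of the 10 called here, where 9.99% of all genes were.

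Between EIH and AMPH at 22.5 C, Tnfaip3 differed by -0.473 (SE 0.201, adjusted p = 0.187), being lower with AMPH in 7 of 7 shared projects. Against saline at 22.5 C, whose 6 rats spanned 173 to 228, EIH was at 0.902 (SE 0.366, adjusted p = 0.125) and AMPH at 0.428 (SE 0.304, adjusted p = 0.384 by edgeR). AMPH at 16 C was 0.931 below saline at 16 C on the fitted log2 scale (fitted difference -0.931, SE 0.373, adjusted p = 0.34).

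Nfkbia, which encodes the alpha inhibitor, was not called in any comparison. Its means were 2202 ± 843 normalized counts in saline at 22.5 C (n = 6), 3754 ± 1942 in saline at 16 C (n = 5), 2165 ± 625 in EIH (n = 16), 3153 ± 1241 in AMPH at 16 C (n = 15) and 2530 ± 996 in AMPH at 22.5 C (n = 22). EIH differed from saline at 22.5 C by 0.030, with a 95% confidence interval of -0.746 to 0.806, and AMPH at 16 C from EIH by 0.576 (SE 0.221, adjusted p = 0.0733 by edgeR). In AMPH at 16 C against EIH, 1 of the 10 genes (Nfkbia) had a fitted value above 0. The median of the 10 was -0.392, against -0.013 over all genes.

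No member was called for AMPH against saline at 16 C, where 0% of the 14000 genes were called by edgeR and a single AMPH rat shared the saline rats' project, 1499 had an unadjusted p under 0.05 and DESeq2 called 91, of which 0 were members. Among the 10, 1 (Tnfaip3) had an unadjusted p under 0.05. No member was called by edgeR in saline at 16 C against saline at 22.5 C (0.00714% of all genes called), where 1 member (Il1b) had an unadjusted p under 0.05 and DESeq2 called 0 members and 67 genes. None was called in AMPH at 22.5 C against EIH either (1.59% called), where 3 members had an unadjusted p under 0.05, DESeq2 called 1 (Il1a), and the fitted values ran from -0.473 to 2.10 with 5 of 10 above 0. Their median was 0.033, against 0.013 over all genes. The contrast of the AMPH effect at 22.5 C with that at 16 C was above 0 in all 10. Its median was 1.66, against -0.032 over all genes, but 0% of all genes were called in it by edgeR. Il1b, Il1rn, Tnf, Ptgs2 and Tnfaip3 had an unadjusted p under 0.05 in it, as did 1034 genes in all, the adjusted p of the 10 genes ran from 0.493 to 0.966, and DESeq2 called 51 genes, of which 0 were members. No difference between the AMPH effects at the 2 temperatures was called for any of the 10.

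The receptors of these ligands were read from a list of 10 genes. In AMPH at 22.5 C against saline the list median was 0.828, against -0.034 over all genes. Of the 10 receptors, 2 were called higher there and 0 lower, beside 2.49% of all genes called. They were Il1r2, the decoy receptor that binds interleukin-1 without signalling, at 2.55 (SE 0.692, adjusted p = 0.0367), and Il1rap, the shared accessory chain, at 2.39 (SE 0.496, adjusted p = 0.0105 by edgeR). In AMPH at 16 C against EIH, Il1r2 was higher by 1.28 (SE 0.437, adjusted p = 0.041) and Il1rap by 1.13 (SE 0.316, adjusted p = 0.0109), and the interleukin-10 receptor chain Il10ra fell by 0.807 (SE 0.191, adjusted p = 0.00263). Il10ra was also lower in AMPH at 22.5 C than in EIH, by 0.649 (fitted -0.649, SE 0.182, adjusted p = 0.0404 by edgeR). Of all genes, 9.99% were called in AMPH at 16 C against EIH and 1.59% in AMPH at 22.5 C against EIH. In the other 4 pairwise comparisons 0 of the 10 receptors were called. One of these was saline at 16 C against saline at 22.5 C, where the list median was 0.808 against -0.037 over all genes, with 9 of 10 fitted values above 0.

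Among the other NF-kB feedback genes, few differences were called. Of 12 listed, 1 was called in EIH against saline at 22.5 C, Nfkbie, which encodes the epsilon inhibitor, at 1.203 (SE 0.352, adjusted p = 0.0476 by edgeR), with a list median of 0.751 against -0.039 over all genes. Of all genes 2.86% were called there. In AMPH at 22.5 C against saline the list median was 0.878 against -0.034 over all genes, with 12 of 12 fitted values above 0. There 0 of the 12 were called by edgeR, and 10 had an unadjusted p under 0.05, as did 23.3% of all genes. In saline at 16 C against the same saline rats the list median was 0.793, against -0.037 over all genes. There too 12 of 12 fitted values were above 0, and 0 were called. In AMPH at 16 C against EIH, Nfkbie was at -1.11 (SE 0.205, adjusted p = 0.000127) and Socs3, a brake on cytokine receptor signalling, at 1.51 (SE 0.416, adjusted p = 0.00983). Of the 8 NF-kB subunits and kinases, 1 was called in 1 comparison, the subunit Rel, at -0.64 in AMPH at 16 C against EIH (SE 0.201, adjusted p = 0.0256 by edgeR). The list medians in that comparison were -0.101 and -0.251, beside -0.013 over all genes, and 9.99% of all genes were called in it.

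Of 14 other cytokines and chemokines, 10 had enough counts to be tested. Between the AMPH groups 2 were higher at 22.5 C, the neutrophil chemokine Cxcl1 at 3.49 (SE 1.14, adjusted p = 0.0406) and IL15 at 0.666 (SE 0.159, adjusted p = 0.00513), and 1 was lower, the T-cell and NK-cell chemokine Ccl5 at -1.43 (SE 0.293, adjusted p = 0.00103 by edgeR). The list median was -0.006, and 7.05% of all genes were called between these groups. Ccl5 was higher in AMPH at 16 C than in EIH, by 1.04 (SE 0.316, adjusted p = 0.0206). Of the 5 inflammasome genes 1 was called in 1 comparison, the adaptor Pycard, at 0.61 between the AMPH groups (SE 0.189, adjusted p = 0.0307). Of 5 prostaglandin pathway genes tested, the receptor Ptger2 was called in EIH against saline at 22.5 C at 2.38 (SE 0.609, adjusted p = 0.0277 by edgeR), and Hpgd, which degrades prostaglandins, in AMPH at 16 C against EIH at 2.40 (SE 0.776, adjusted p = 0.0299). Of all genes 2.86% were called in the former comparison and 9.99% in the latter.

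Markers of blood cell types also differed between groups, not always in the direction of the members. In AMPH at 16 C against EIH, where Tnfaip3 was lower, list medians were 0.854 for neutrophils, 0.447 for T cells and 0.103 for red cells. They were -0.48 for monocytes, -0.27 for B cells and -0.715 for platelets. Between the AMPH groups, where Il1a was higher at 22.5 C, they were -0.445 for neutrophils, -0.094 for T cells and -1.13 for red cells. Those of monocytes, B cells and platelets were 0.26, 0.224 and 0.136. In AMPH at 16 C against EIH, 3 of 9 neutrophil markers (S100a8, S100a9 and Elane) were called higher, 1 of 6 monocyte markers was higher (Cd163) and 1 lower (Csf1r), 1 of 5 T-cell markers was higher (Cd2), and 1 of 3 B-cell markers was lower (Cd22). Of all genes 9.99% were called there, so a single call in a short list is little beyond that share. The summed neutrophil markers ran from 242069 to 737572 normalized counts in AMPH at 16 C and from 60106 to 329277 in EIH. In AMPH at 22.5 C against saline, where 2.49% of all genes were called, 1 of 9 neutrophil markers (Csf3r) and 1 of 3 platelet markers (Ppbp) were called higher. The summed neutrophil markers ran from 48824 to 1002472 against 32865 to 428327, and the summed monocyte markers from 4906 to 21961 against 4245 to 11043 in saline at 22.5 C. In EIH against saline at 22.5 C, where 2.86% of all genes were called, 1 of 6 monocyte markers (Itgax) and Ppbp were higher and 1 of 5 T-cell markers (Cd2) lower. The summed T-cell markers ran from 1126 through 1957 to 4669 normalized counts in EIH, below all 6 saline rats at 22.5 C, which ran from 4765 through 6379 to 7802. In AMPH at 22.5 C they ran from 1069 through 2904 to 8164. The median fitted value of the T-cell list was -1.31 for EIH and -1.04 for AMPH against that saline group, with 0 of 5 called for AMPH. Between the AMPH groups, where 7.05% of all genes were called, 2 of 4 red cell markers (Hba-a2 and Slc4a1) were lower and Ppbp higher at 22.5 C. None of the defining blood cell markers was at 0 in every rat of a group. The medians of Cd163 and Mpo were under 10 counts in every group but saline at 22.5 C, so the call of Cd163 rests on few counts. The part of these cell types in the differences was not tested.

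Hemoglobin also differed in spread, with a median share of 13.6% of counts in EIH against 8.80% in saline at 22.5 C, and with that share as a covariate the EIH difference of Ptgs2 was 2.95 (adjusted p = 0.0552), no longer called. Il1a between the AMPH groups and Tnfaip3 between AMPH at 16 C and EIH were called with and without it.

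Over the 59 rats of the fit, the genes whose levels followed a member most closely were listed for the 6 members with a median of at least 100 normalized counts, by Spearman's rho over 7775 such genes. All rats share their group and project structure, so these are descriptions. For Ptgs2 they were Trib1 (rho 0.88), Ifnar2 (0.869) and Hcar2 (0.868), for Il1rn Fbxl5 (0.875), Lcp1 (0.872) and FCGR3 (0.866), and for Il1b Ifit1lb (0.772), Stk17b (0.748) and Kpna4 (0.731). Tnf was followed by Cyth4 (0.763), Rgs19 (0.759) and Napsa (0.758). For the feedback genes, Nfkbia was followed by Map3k8 (0.741), Degs1 (0.736) and Tmem230 (0.735), and Tnfaip3 by Rel (0.729), Topors (0.721) and Setd5 (0.718).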

How the data were processed

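RNA-seq tables were used, 1 per rat by the labels, although whether EIH replicate 12, with pool in its table's name, held 1 rat is not stated. Per the labels and the study's methods, globin-depleted polyadenylated RNA was sequenced paired-end, reads were clipped, aligned to rat transcripts (build rn5; Bowtie 0.12.9 in the submitters' processing notes) and quantified with RSEM 1.2.0. The authors deposited the resulting expected counts per gene, not normalized, and RSEM divides reads shared by related genes between them. These counts were rounded to whole numbers, and the 17366 genes listed in all tables were kept. The code opening each table's name was taken as a project (14 in all). The labels do not define it, and what rats of 1 project shared is not given in the sources used here.

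edgeR 4.0.16 in R 4.3.3 fitted group and project (TMM normalization, quasi-likelihood test) for genes reaching 10 counts in 4 or more rats, leaving 42 residual degrees of freedom. Rats over 5000 Mb counts, the study's criterion, were left out. DESeq2 1.42.0 gave size factors and an alternative test. Python 3.11.15 with pandas 2.3.3 and matplotlib 3.10.9 made the summaries. On simulated data, edgeR recovered 100% of changes of 2 log2 units between the AMPH groups and 97% between AMPH and saline at 22.5 C, with 78% and 26% of changes of 1 unit (13752 genes). Of its calls 6.81% and 3.15% were false, against 9.55% and 10.7% for DESeq2. Each simulated gene took the dispersion of the fitted trend, so these rates do not cover genes that vary more than the trend. Every pair of rats of a group differed beyond sampling noise (chi-square per gene of 56.6 or more).

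The 10 genes, the lists and the tests were chosen with earlier results of these data known. All 10 are named, and of each of the 6 pathway lists at most the 4 called genes that changed most. Alternatives were other size factors, DESeq2, no count filter, all 64 rats, no project term, the replicate block, shared projects alone and leaving out single rats. A hemoglobin covariate and leaving out AMPH rat 17 at 22.5 C were chosen after seeing the data. Intervals and floors on counts cover counting error only where no replicate spread is given.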

Additional observations from a re-analysis of the deposited data

Results flagged for a closer look

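The levels of the 10 genes in the 2 saline groups gave 20 sets of values in which a rat could be set apart from the rest of its group by Dixon's criterion, and 3 such values were found. Chance alone sets apart about 1 in 20 such groups. Saline replicate 19 at 22.5 C had an Il1b level of 19398 normalized counts, the next highest of the 6 rats having 9033, a gap of 0.661 of the group's range. Saline replicate 2 at 16 C had an Il1a level of 6.00 normalized counts, the next highest of the 5 rats having 2.82 (a gap of 0.779 of the range, on at most 6 counts). The same rat had an Nfkbia level of 7077 normalized counts against 3379 in the next, a gap of 0.722 of the range. Without saline replicate 19, Il1b was called in both comparisons with saline at 22.5 C, at 2.07 (adjusted p = 0.00395 by edgeR) for AMPH and 2.49 (adjusted p = 0.00547 by edgeR) for EIH. Leaving out saline replicate 2 changed no count of called genes among the 10.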

How the results depend on the processing

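Of the 6 called differences, 2 stayed called in every alternative run. Il1a between the AMPH groups was called throughout (log2 fold change 3.10 to 4.41, adjusted p of 2.76e-07 to 0.00193 by edgeR or DESeq2), as was Tnfaip3 in AMPH at 16 C against EIH (-1.09 to -0.893, adjusted p of 0.000417 to 0.00602). No difference with an unadjusted p under 0.05 turned its direction in any alternative. In AMPH at 22.5 C against saline, 3 of the 10 genes were called as reported, 5 with DESeq2, 5 with all 64 rats and 5 without the project term (Il1b and Cxcl2 being added each time), 0 in the projects shared by both groups alone (7 and 4 rats), and 0 to 5 when single rats were left out. Over all genes the calls there went from 349 to 1052, 1090 and 1676 with DESeq2, all rats and no project term. In EIH against saline, 1 was called as reported, 2 with relative log expression factors, 3 with DESeq2, 3 with all rats, 4 without the project term, 0 with the hemoglobin covariate and 0 to 3 without single rats. Calls over all genes there went from 400 to 1291, 1314 and 3329 in the same 3 settings. Between the AMPH groups the count of 1 became 2 with DESeq2, without the project term, with the hemoglobin covariate and in shared projects alone, and stayed at 1 without single rats. Over all genes DESeq2 called 1125 there and the fit in shared projects 1219 of 12091, against 987 as reported. In AMPH at 16 C against EIH the count of 1 became 2 with DESeq2, 6 without the project term (Il1a, Il6, Il10, Ptgs2 and Nfkbia being added) and 2 in shared projects, and stayed at 1 without single rats. Over all genes DESeq2 called 1603 there and the fit in shared projects 1208 of 12096, against 1399 as reported. In AMPH at 22.5 C against EIH the count of 0 became 1 (Il1a) with DESeq2 and with the hemoglobin covariate. Over all genes DESeq2 called 424 there, against 223 as reported. For these last 3 comparisons, calls over all genes without the project term or with the hemoglobin covariate are not given here. The member counts in those settings thus cannot be set against a share of all genes. The cause of the changes in the counts was not tested. Il1a against saline at 22.5 C lost its call without the count filter (adjusted p = 0.0522 by edgeR) and with the hemoglobin covariate (adjusted p = 0.0627 by edgeR). Without AMPH replicate 17 at 22.5 C, whose Il1a and Cxcl2 counts were 0, 5 genes were called against saline and 3 in EIH against saline. Calls over all genes without that rat are not given here, and it was left out after its values had been seen.

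With the replicate block beside project, 0 genes were called in AMPH at 22.5 C against saline, 0 in EIH against saline and 2 between the AMPH groups (Il1a and Tnfaip3). The numbers were not taken as pairs: deviations of same-numbered rats correlated at a mean of 0.021 over 59 pairs, 15 of which exceeded 0.1, and 4 of 56 rats correlated best with a rat of their own number. EIH and saline at 22.5 C, and the 2 saline groups, shared no project, so no fit in shared projects alone could be made for them, nor for the difference of the AMPH effects. With TMM factors or without the rats over the Mb limit, group mean levels of the 10 genes moved by less than their SD over all rats. That SD includes the rats over the limit. Without them the Il6 mean in AMPH at 16 C fell from 14.1 (SD 42.0) to 3.55 (SD 2.38). The precision was set by 4 saline rats at 22.5 C and, for Il1a, Il6 and Il10, by few counts. With the simulated fit, which placed no change in genes of so few counts and gave each gene the trend's dispersion, 26% of changes of 1 log2 unit against saline were recovered.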
